A study of Mus musculus with 4 samples.

Results

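CHD8 regions that were called as 1 peak in one ChIP library and as several peaks in the other are described here. The members are the autosomal peaks of ChIP replicate 2 that were at least 600 and under 2500 bp wide and overlapped at least 2 peaks of ChIP replicate 1 by 1 bp or more. They are called split regions below, and the distances between the replicate 1 summits in them are the main measure. There were 1744 split regions among 12971 autosomal replicate 2 peaks of this width, which is 13.4% (95% Wilson interval 12.9 to 14.0), and among 31002 replicate 2 peaks in all. They held 3614 of the 22323 autosomal replicate 1 peaks, or 16.2%. The rule uses the widths and positions of the peaks, so the number of regions and the reach of the spacing are descriptions and were not tested.

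The series held 4 samples of mouse embryonic stem cells, kept on gelatin in 2i medium, in which the endogenous Chd8 locus was homozygous for a C-terminal 3xFLAG tag. In 2 samples the tagged protein was recovered with the antibody ANTI-FLAG M2, and 2 were inputs without antibody; all 4 shared the tag, the medium and the cell type. Libraries were made by tagmentation on beads. The labels name no other treatment, and no untagged cells were among the samples. They do not state whether replicates were separate cultures, so what the replicates share may be technical. Peak lists of the 2 ChIP samples were analysed, and the inputs enter only through the control background in the peak statistics. The number of reads over each summit was solved from the deposited fold enrichment and p-value. The solved depth was 3.44 ChIP reads per position in replicate 1 and 3.56 in replicate 2, and the weakest peaks rested on 11 and 13 reads. Intervals of read numbers cover counting error only. Those of shares and medians treat peaks, regions or pairs as independent draws, although several pairs can come from 1 region. No interval covers variation between replicates.

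CHD8 is a chromatin remodeller of the CHD family. Such proteins carry paired chromodomains and a motor that uses ATP to slide or space nucleosomes, and CHD8 is known to sit at active promoters and enhancers in stem cells and neural progenitors. Loss of one copy of the human gene is a known cause of a form of autism. In a ChIP peak list a wide peak is a stretch where tagged protein was enriched above a threshold, with only short dips below it. The same stretch can appear as several peaks where the signal dips below the threshold for longer between summits. Both lists obeyed the same limits: no peak was narrower than 200 bp, and no neighbouring peaks lay closer than 77 bp. A dip shorter than 77 bp therefore does not appear as a split in either list.

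Most split regions held a pair of replicate 1 peaks. Of the 1744, 1610 held 2 peaks, 127 held 3 and 7 held 4, and none held more. All replicate 1 summits lay inside the replicate 2 peak in 1443 regions, or 82.7% (80.9 to 84.4). In 294 regions 1 summit lay outside it and in 7 regions 2 did. In 198 regions, or 11.4%, a replicate 1 peak also reached another replicate 2 peak. The smallest overlap that made a region a member was a median of 248 bp and ranged from 1 to 1001 bp, and it was under 10 bp in 18 regions. The replicate 1 peaks together covered a median of 71.6% of a region (quartiles 59.1 and 81.5).

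Wide replicate 2 peaks were split more often than narrow ones. Of the peaks of 600 to under 800 bp, 4.07% (3.44 to 4.80) were split, and of those of 2000 to under 2500 bp, 30.2% (27.2 to 33.4). The classes between followed in order, with 9.48% from 800 bp, 13.3% from 1000 bp, 16.3% from 1200 bp and 22.5% from 1500 bp. A longer peak has room for more replicate 1 peaks, so this order is partly built into the rule. Regions with 3 or more replicate 1 peaks made up 0.0308% of the narrowest class and 5.21% of the widest. The share without any replicate 1 peak went the other way, from 24.7% to 0.355%. At the lower edge of the rule the share was 3.24% just outside it, from 550 to under 600 bp, and 2.32% just inside, from 600 to under 650 bp. At the upper edge it was 24.5% of 102 peaks just inside, from 2400 to under 2500 bp, and 28.9% of 90 peaks just outside, from 2500 to under 2600 bp.

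**Figure D1:**
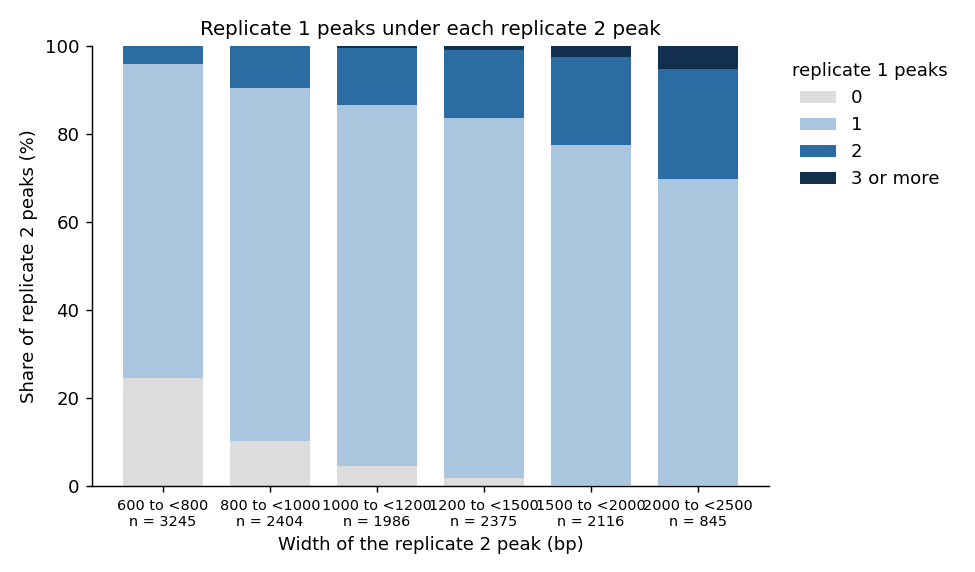
Stacked bars give, for each width class of autosomal replicate 2 peaks (x axis, bp, with the number of peaks), the share in percent that overlapped 0, 1, 2 or at least 3 replicate 1 peaks. The dark upper segments, the split regions, grow from 4.07% in the narrowest class to 30.2% in the widest.

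The narrowest split region and the widest mark the inner limits of the rule. The narrowest, 602 bp, lay on chromosome 6 at 86534230 to 86534831 (mm9, 1-based, as for all positions here). Its replicate 1 summits had 21 and 26 reads and lay 1070 bp apart, and the second lay outside the replicate 2 peak. The first replicate 1 peak lay wholly inside the region. The second, at 86534732 to 86535632, reached beyond the right edge of the region. The widest lay on chromosome 8 at 107812729 to 107815227 and held 3 replicate 1 summits of 40, 27 and 22 reads, spaced 850 and 752 bp apart. Its replicate 2 summit of 48 reads lay 49 bp from the highest of them. The control background at those 3 summits was 1.501, 1.97 and 1.57 times the genome-wide value.

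Over the 1885 neighbouring pairs in split regions the distance had a median of 635 bp (95% binomial interval of the median 621 to 647). The quartiles were 483 and 853 bp, and 90% of the distances, between the 5th and 95th percentile, fell from 349 to 1260 bp. Only 29 pairs, or 1.54%, were closer than 300 bp. Another 26.8% were from 300 to under 500 bp apart, 30.8% from 500 to under 700 bp, 25.9% from 700 to under 1000 bp and 14.9% were 1000 bp or more. The fullest class of 50 bp began at 500 bp and held 167 pairs, closely followed by those from 450 bp with 163 and from 400 bp with 156. These 3 neighbours do not differ beyond counting error. Among the 1582 pairs with both summits inside the replicate 2 peak the median was 614 bp (596 to 632) and the longest distance was 1897 bp. The 3 distances of 2500 bp or more belonged to replicate 1 peaks that reached beyond the region.

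**Figure D2:**
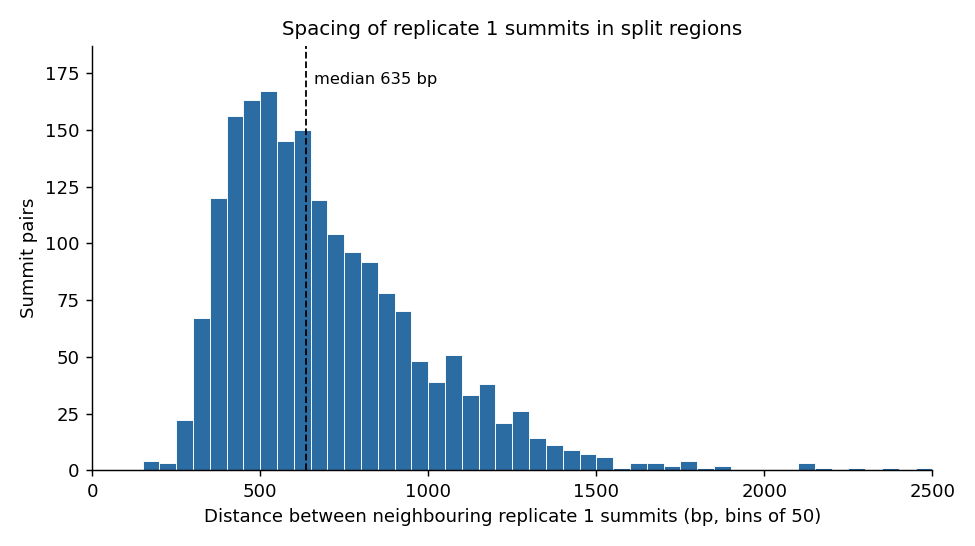
The histogram counts neighbouring replicate 1 summit pairs in split regions (y axis) by their distance (x axis, bp, bins of 50), with the median of 635 bp as a dashed line; the 3 pairs of 2500 bp or more are not drawn. The distances form 1 broad hump with its fullest bin starting at 500 bp and a tail to the right.

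The spacing followed the width of the region. Its median was 477 bp in the class from 600 bp, 492.5 bp from 800 bp, 571 bp from 1000 bp, 610 bp from 1200 bp, 748.5 bp from 1500 bp and 886 bp from 2000 bp. In regions with exactly 2 peaks, both summits inside, the summits spanned a median of 47.2% of the region (quartiles 37.6 and 57.6). The width of a region limits the distance between summits inside it, so the rise of the median with width is partly built in. A preferred spacing was not tested.

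The gaps between the replicate 1 peaks were much shorter than the distances between their summits. From the end of a peak to the start of the next there was a median of 147 bp (141 to 153; quartiles 103 and 224). In 423 of the 1885 gaps, or 22.4%, the length was under 100 bp, close to the minimum of 77 bp in both lists, and in 13.1% it was 300 bp or more. The longest gap was 1147 bp. When replicate 1 peaks less than 100 bp apart were joined, 1378 of the regions, or 79.0% (77.04 to 80.9), were still split. The replicate 1 peaks in split regions had a median width of 408 bp, against 495 bp for the whole replicate 1 list. Their summits lay within 25 bp of a peak edge in 1.99% (1.59 to 2.50), against 1.53% (1.38 to 1.70) of all autosomal replicate 1 peaks.

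The closest and the farthest pairs are given for regions with exactly 2 replicate 1 peaks and both summits inside. The shortest distance among them was 150 bp, on chromosome 1 at 173367139 to 173368271. Its left summit had 24 reads and the right one 14, and the peaks were 92 bp apart. The control background at these summits was 1.97 and 1.41 times the genome-wide value. The right peak had a −log10 q of 1.51, where the replicate 1 list began at 1.32. The right summit sat on the first bases of its peak, 1 bp from the edge that faces its neighbour, and the replicate 2 summit lay 377 bp away from it, outside both replicate 1 peaks. The next shortest among them, 229 bp, was on chromosome 13 at 75227342 to 75228316, with summits of 16 and 23 reads and a gap of 79 bp. There the replicate 2 summit of 30 reads fell in the gap, 14 bp from the lower summit. At that lower summit the control background was 1.69 times the genome-wide value and −log10 q was 1.63. At the higher summit the control was at the genome-wide value. Neither pair differed beyond counting error, with adjusted p-values of 0.54 and 0.84 in the exact binomial test described below.

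At the other end, the summits of the region on chromosome 7 at 3210256 to 3212678 lay 1897 bp apart. The left one had 16 reads (exact Poisson interval 9.15 to 26.0) and the right one 36 (25.2 to 49.8), and 936 bp between the peaks were not called in replicate 1. On chromosome 17 at 27176733 to 27178979 the distance was 1652 bp and the gap 919 bp, with summits of 17 and 15 reads. In replicate 2 each of these stretches was a single peak, with summits of 43 and 33 reads.

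Within each region the replicate 1 summits were ordered by read number. A second summit at or below the highest is therefore built in, and counting error alone would also give ratios under 1. The highest summit had a median of 24 reads (quartiles 20 and 30) and the next highest 17 (15 and 20). Their ratio, second over highest, had a median of 0.741 (quartiles 0.583 and 0.870). The second summit reached 80% or more of the highest in 693 regions, or 39.7%, and stayed under 50% in 244, or 14.0%. In 88 regions the read numbers were equal. By the authors' fold enrichment the medians were 5.18 for the highest and 3.83 for the second. The second summits were weak peaks of the replicate 1 list: 672, or 38.5%, were in its lowest quintile by −log10 q, 1176, or 67.4%, in its lowest 2 quintiles and 4 in its highest. Of the highest summits, 86, or 4.93%, were in the lowest quintile and 347, or 19.9%, in the highest. In replicate 2, 1428 of the regions, or 81.9%, were in the upper 2 quintiles of the list, against 76.3% of all eligible peaks. Width was not matched here: split regions had a median width of 1388 bp, against 1093 bp for peaks with a single replicate 1 peak.

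**Figure D3:**
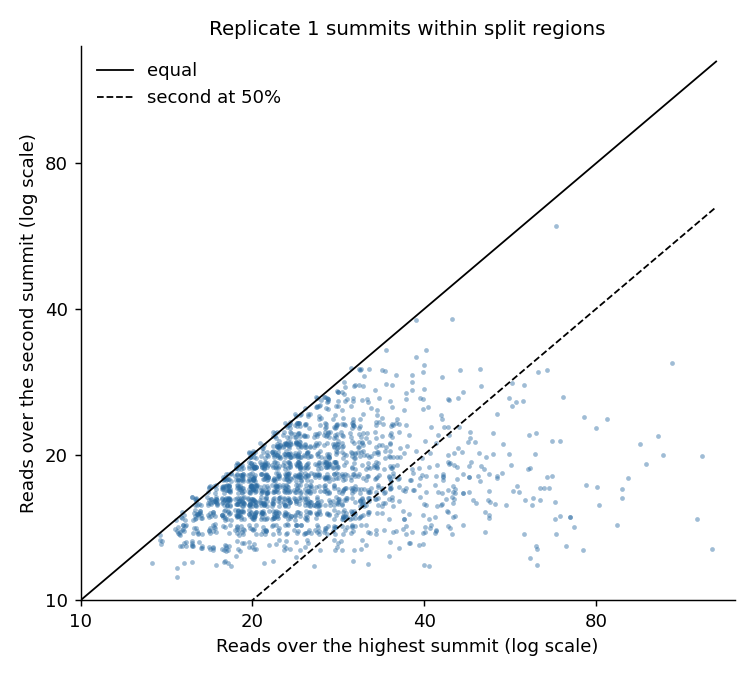
Each point is a split region, placed by the replicate 1 reads over its highest summit (x axis) and its second summit (y axis), both on log scales and with a small random shift so that equal values do not hide each other. Second summits had a median of 17 reads and ranged from 11 to 59, and highest summits ranged from 13 to 128 reads. By construction no point lies above the line of equal values, and 244 regions lie under the dashed line at 50%.

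The higher summit lay to the left and to the right in similar numbers of regions. Sides are by genome coordinate without gene direction, and a preferred side was not tested. In the 1610 regions with 2 peaks the left summit, at the lower coordinate, was higher in 794 and the right one in 737, and 79 were equal. In the 127 regions with 3 peaks the highest was the left one in 41, the middle one in 43 and the right one in 43. The 3 summits spanned a median of 1227 bp (quartiles 1039 and 1490.5). The longer of the 2 distances was a median of 1.46 times the shorter, and 69 of the 127 regions, or 54.3% (45.7 to 62.7), had distances within 1.5 times of each other. The distances in these regions had a median of 578 bp (545 to 635), against 644 bp (631 to 658) in regions with 2 peaks.

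Whether neighbouring summits differed beyond counting error was tested with the exact two-sided binomial test of the left against the right read number. It was run on all 4988 neighbouring autosomal replicate 1 pairs with summits under 2500 bp apart, with Benjamini-Hochberg adjustment over all of them. In the whole set 462 pairs, or 9.26%, passed an adjusted p under 0.05. Of the 1882 such pairs inside split regions, 177 passed, or 9.40% (8.17 to 10.8), which is near the share over all pairs. The left summit was the higher in 86 and the right in 91. The called pairs had a median of 49 against 17 reads, a ratio of 2.92 (quartiles 2.53 and 3.47), and the smallest ratio called was 2.04. At an unadjusted p under 0.05 there were 351 pairs, or 18.7%, against 18.1% of all pairs. Smaller differences were not detectable at these read numbers, so the other pairs are not shown to be equal. The test compares positions within 1 library, and summits are local maxima rather than fixed positions.

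The strongest split regions were high CHD8 peaks with a low peak on the flank. The 6 with the highest −log10 q in replicate 2 stood at ranks 19 to 198 of its 31002 peaks. The first, on chromosome 1 at 58642545 to 58644159, had a fold enrichment of 26.1 and 145 reads (122 to 171) in replicate 2. In replicate 1 the main peak had 128 reads (107 to 152) with its summit at the same base. A flank peak at 58642393 to 58642616 reached into the left end of the replicate 2 peak. Its summit of 13 reads (6.92 to 22.2) lay 822 bp to the left of the main one, outside the replicate 2 peak. These 2 summits differed with an adjusted p of 3.1e-21 in the exact binomial test. On chromosome 7 at 125257939 to 125260198 the main replicate 1 summit had 123 reads and the replicate 2 summit, 78 bp away, had 121. Flank summits of 20 and 17 reads lay 960 bp and another 471 bp to its left. They did not differ from each other beyond counting error, at an adjusted p of 1 in the exact binomial test.

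The other 4 had a single flank peak each. On chromosome 2 at 157738763 to 157740521 the replicate 1 summits had 109 and 31 reads and lay 1030 bp apart, with 108 reads in replicate 2. On chromosome 7 at 5002238 to 5004420 they had 105 and 20 reads, 943 bp apart, with 106 in replicate 2, and only 78 bp lay between the peaks. On chromosome 11 at 48629793 to 48631902 they had 103 and 22 reads, 1160 bp apart, with 108 in replicate 2 and the replicate 2 summit 4 bp from the main one. On chromosome 8 at 87822606 to 87825036 they had 24 and 84 reads, 992 bp apart, with 112 in replicate 2. In all 6 regions the replicate 2 summit was nearest to the main replicate 1 summit, at 0 to 124 bp, and the flank summit next to the main one lay 822 to 1160 bp from it. The exact binomial test gave adjusted p-values from 3.1e-21 to 3.1e-07 for the main summit against its flank neighbour. The flank peaks lay on the left in 3 regions and on the right in 3. At the main replicate 1 summits on chromosomes 1 and 8 the control background was 1.69 times the genome-wide value. At the chromosome 7 summit of 123 reads it was 1.41 times that value, and at the one of 105 reads 1.08 times. On chromosome 2 it was 1.07 times, and on chromosome 11 it was at the genome-wide value.

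**Figure D4:**
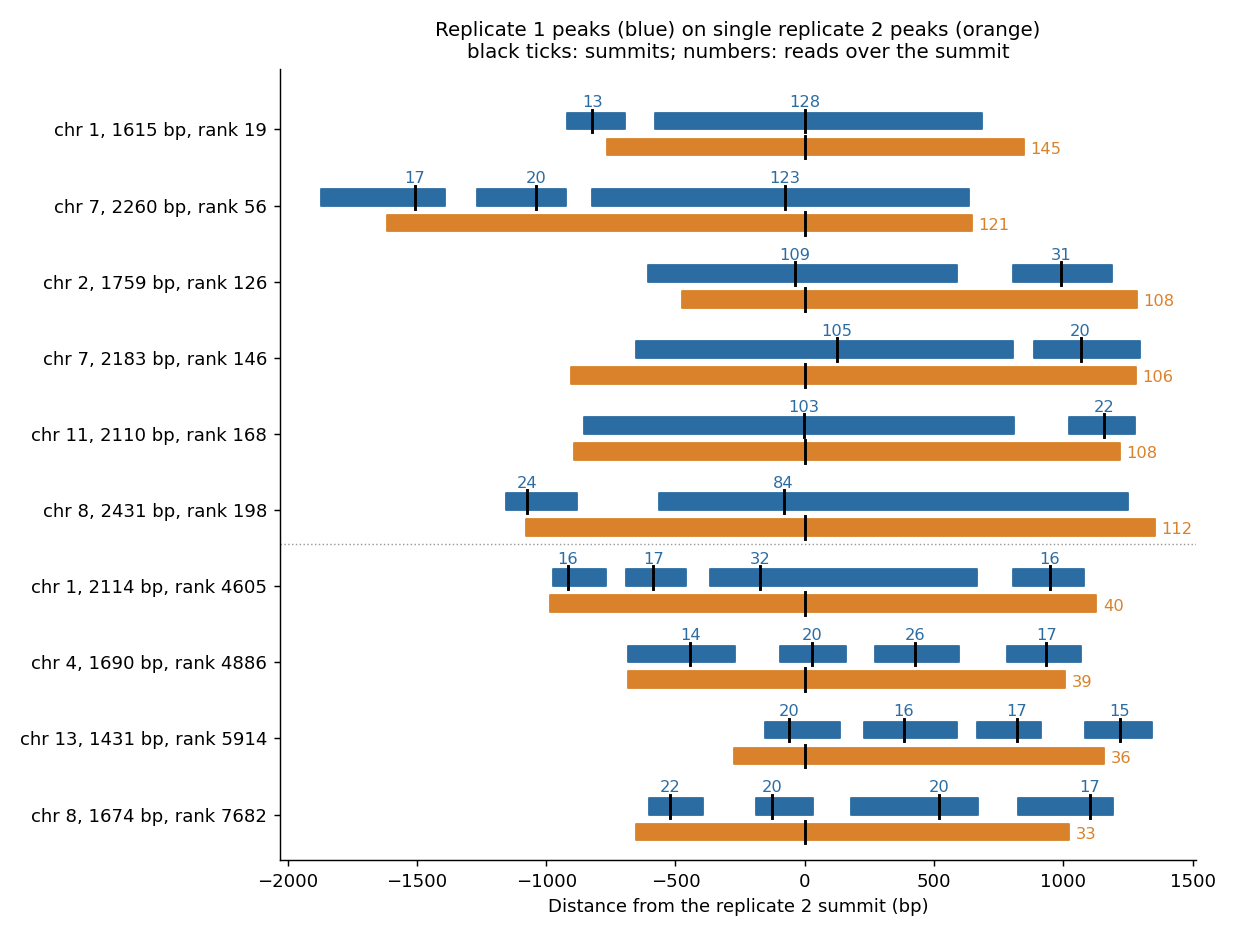
Each row is a split region, with its replicate 1 peaks in blue above its replicate 2 peak in orange; the x axis is the distance in bp from the replicate 2 summit, black ticks are summits and numbers are reads over them. The upper 6 rows are the strongest regions, with 1 main summit of 84 to 128 reads in replicate 1 and flank summits of 13 to 31, and the lower 4 rows are regions with 4 replicate 1 peaks, with 14 to 32 reads.

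The regions with the most replicate 1 peaks were weaker. The 4 strongest of the 7 regions with 4 peaks had replicate 1 summits of 14 to 32 reads and ranked 4605 to 7682 in replicate 2. On chromosome 1 at 162964453 to 162966566 the summits had 16, 17, 32 and 16 reads at distances of 331, 412 and 1122 bp. On chromosome 4 at 129058137 to 129059826 they had 14, 20, 26 and 17 reads, spaced 470, 398 and 509 bp. On chromosome 13 at 68720050 to 68721480 the reads were 20, 16, 17 and 15 and the distances 445, 438 and 398 bp, the most even of the 4. The last summit there lay outside the replicate 2 peak. On chromosome 8 at 97875448 to 97877121 the reads were 22, 20, 20 and 17 at 395, 646 and 582 bp, again with the last summit outside. None of the 12 neighbouring pairs in these 4 regions differed at an adjusted p under 0.05 in the exact binomial test; 2 pairs, both with the summit of 32 reads on chromosome 1, had an unadjusted p under 0.05. In replicate 2 the same stretches were single peaks with 40, 39, 36 and 33 reads. Its summit was nearest to the highest replicate 1 summit on chromosomes 1 and 13, and 426 and 521 bp away from it on chromosomes 4 and 8.

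A pair of high summits inside one region was rare. In 4 regions the second summit was in the highest quintile of replicate 1, and these were chosen with their values known. On chromosome 17 at 56723173 to 56725420 the summits had 59 (44.9 to 76.1) and 68 reads (52.8 to 86.2), 731 bp apart with a gap of 104 bp, and the replicate 2 summit of 87 reads lay 38 bp from the right one. On chromosome 4 at 146034368 to 146035548 they had 31 and 40 reads, 541 bp apart, and the replicate 2 summit of 56 reads lay 1 bp from the higher. On chromosome 5 at 124802206 to 124804463 they had 32 and 39 reads, 1500 bp apart, and the replicate 2 summit of 45 reads lay by the lower one, 29 bp away. On chromosome 8 at 87502428 to 87504564 they had 39 and 38 reads, but the left summit belonged to a peak that began 2893 bp before the region and was 3897 bp away. The first 3 pairs did not differ beyond counting error, with adjusted p-values of 0.97, 0.85 and 0.97 in the exact binomial test. The fourth was too far apart to be tested. The choice by a high second summit favours similar read numbers, so these p-values do not show that the summits are equal.

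The position of the replicate 2 summit was not used by the rule, and it lay by the higher replicate 1 summit more often than by a lower one. It was nearest to the highest summit in 1253 of 1744 regions, or 71.8% (69.7 to 73.9). Where the second summit was under 50% of the highest, the share was 96.3% (93.1 to 98.0). It was 80.05% (77.2 to 82.7) where the second summit was at 50% to 80%. Where the second summit was at 80% or more, the share was 53.7% (49.96 to 57.4). That class holds the 88 regions with equal read numbers, in which the highest was set by −log10 q or position. It also holds regions with more than 2 peaks, so the share was not set against 50%. Without the ties the share over all regions was 73.8% (71.6 to 75.9). The replicate 2 summit lay a median of 95 bp (quartiles 36 and 184) from the nearest replicate 1 summit. In the 10035 peaks of the same width range with a single replicate 1 peak the summits lay a median of 99 bp apart. The nearest of several summits is closer by construction than a single one would be.

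In most regions the replicate 2 summit fell on one of the replicate 1 peaks, and in some it fell in the gap between them. It was inside a replicate 1 peak in 1540 regions, or 88.3%, in a gap in 148, or 8.49% (7.27 to 9.89), and outside the outer replicate 1 peaks in 56, or 3.21%. The regions with the replicate 2 summit in a gap were weaker and more even: their median replicate 2 summit had 28.5 reads against 35, their highest replicate 1 summit 20 against 25, and the second was at 0.826 of the highest against 0.727. The gap had a median of 216.5 bp. The highest replicate 2 summits in a gap, chosen after their values were seen, were on chromosome 8 at 72459296 to 72460706 and on chromosome 4 at 149421957 to 149423605. The first had 44 reads (32.0 to 59.1) in replicate 2 and replicate 1 summits of 30 and 31 reads at 699 bp. The second had 40 reads (28.6 to 54.5) in replicate 2 and summits of 17 and 19 reads at 663 bp, with a gap of 336 bp.

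Split regions stood between the other peaks of the same width in the height of the replicate 2 summit, below those with a single replicate 1 peak and above those with none. In the class from 600 bp the median was 26 reads, against 28 for peaks with a single replicate 1 peak and 23 for peaks with none. From 1200 bp it was 34.5 against 42 and 27, and from 2000 bp it was 41 against 56 and 36, the last over 3 peaks. The order was the same in all 6 width classes. By the authors' fold enrichment the widest class had 8.14 in split regions and 10.96 in peaks with a single replicate 1 peak. By strength, the share of split regions was highest in the fourth quintile of the replicate 2 list, with 17.5% (16.4 to 18.6). It was 5.39% in the lowest quintile and 12.1% (11.3 to 13.0) in the highest. Regions within a library are not independent replicates, so these are descriptions without a test.

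Replicate 2 summits of split regions were also set against those of replicate 1 after division by ChIP depth. The ratio of the replicate 2 summit to the highest replicate 1 summit had a median of 1.30 (1.29 to 1.32), and it was above 1 in 92.7% of the split regions. In the replicate 2 peaks with a single replicate 1 partner the median was 1.26 (1.26 to 1.27) and 90.6% were above 1. All of these were admitted by their width in replicate 2. In the 8599 autosomal replicate 1 peaks of the same width range with a single replicate 2 partner, chosen by their width in replicate 1, the median was 1.25 (1.24 to 1.25) and 90.1% were above 1. The differences between these sets were not tested. Against the second summit the ratio was 1.82 (1.80 to 1.87). The control background exceeded the genome-wide value at 40.7% of the replicate 2 summits of split regions and at 42.2% of those with a single partner. In replicate 1 it did so at 51.8% of the highest and 49.2% of the second summits. It reached 2 times that value at 20 of the replicate 2 summits, 25 of the highest and 14 of the second replicate 1 summits. The part of signal level and control background in the splitting was not tested.

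How a pair of neighbouring replicate 1 peaks appeared in replicate 2 went with the gap between them. Of the 4988 neighbouring autosomal pairs with summits under 2500 bp apart, 2327, or 46.7%, shared a replicate 2 peak of any width and 1819, or 36.5%, lay on different replicate 2 peaks. At gaps under 100 bp 80.2% (76.96 to 83.1) shared a peak, from 100 bp 74.8% and from 150 bp 67.7%. From 200 to under 300 bp it was 50.3% (47.0 to 53.6), from 300 to under 500 bp 30.04% and from 500 to under 1000 bp 13.1%. At 1000 bp or more 6 of 566 pairs, or 1.06% (0.487 to 2.29), did. Pairs on a shared replicate 2 peak had a median gap of 149 bp and a median spacing of 654 bp, against 445 bp and 1056 bp for pairs on different peaks. Their read numbers were close, with medians of 17 for the lower and 24 for the higher summit against 17 and 23.

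**Figure D5:**
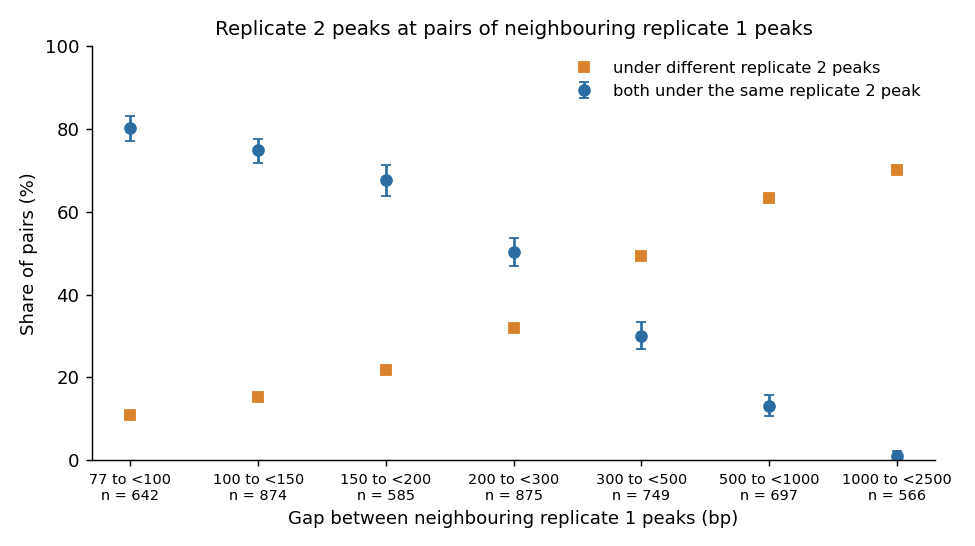
For neighbouring autosomal replicate 1 peaks, grouped by the gap between them (x axis, bp, with the number of pairs), circles give the percent that shared a replicate 2 peak, with 95% Wilson intervals, and squares the percent on different replicate 2 peaks. The circles fall from 80.2% at the shortest gaps to 1.06% at the longest, and the squares rise from 11.1% to 70.1%.

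Where both replicates called the neighbours apart, their spacings could be compared directly. There were 1247 pairs in which each replicate 1 peak met 1 replicate 2 peak of its own and the reverse. Their summits lay a median of 991 bp apart in replicate 1 and 1009 bp in replicate 2. Pair by pair the spacings differed by a median of 145 bp (quartiles 63 and 281), and 459, or 36.8%, were within 100 bp. The gap was a median of 418 bp in replicate 1 and 288 bp in replicate 2. These pairs lay farther apart than the pairs in split regions, whose median spacing in replicate 1 was 635 bp. In split regions replicate 2 gave no second spacing, so the difference between libraries was not measured there.

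Splitting also occurred in the other direction, but less often. Of 9320 autosomal replicate 1 peaks of 600 to under 2500 bp, 692 overlapped 2 or more replicate 2 peaks, which is 7.42% (6.91 to 7.97) against 13.4% for replicate 2 peaks over replicate 1. Of these, 669 held 2 replicate 2 peaks and 23 held 3. The replicate 2 summits in them lay a median of 695 bp apart (675 to 722; quartiles 526 and 914.5), and the gaps had a median of 125 bp, also with a minimum of 77 bp. A stretch split in one library was by this rule a single peak in the other, so these splits were each seen in 1 library. The part of the depth-normalised levels given above in the unequal numbers was not tested.

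Split regions were found on all 19 autosomes in similar shares. The share of eligible replicate 2 peaks that were split ran from 11.6% (9.74 to 13.7) on chromosome 2 to 16.2% (13.3 to 19.5) on chromosome 13. The next highest were chromosome 14 with 15.9% (12.8 to 19.5) and chromosome 4 with 14.9%, and the next lowest chromosome 12 with 11.9% (9.25 to 15.2). The Wilson intervals of all of these overlap. The largest number was on chromosome 11, with 150 of 1073 peaks. Gene annotation and sequence of mm9 were not used here, so the regions carry positions without genes or motifs.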

How the data were processed

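CHD8 was measured by ChIP-seq. Bowtie2 2.1.0, MACS2 2.1.1 and mm9 are named per the submitters' processing notes; which control and filters each list used is not given in the sources used here. The deposited lists are per sample. Deposited fold enrichment is the linear ratio of the summit over background. Deposited −log10 p and −log10 q belong to the summit; −log10 q started at 1.32 and 1.31. The deposited score is 10 times −log10 q, cut to a whole number.

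With MACS2's formulas, fold and p were solved for whole reads and the local background (misfit in log10 p under 0.002 at all peaks; 78 replicate 2 peaks had more than 1 solution, closest taken). Genome-wide backgrounds were 3.44 and 2.55; replicate 2 was scaled by 0.714. Ties in height went to the higher −log10 q. Steps were tested on simulated data. Shares carry Wilson, reads exact Poisson intervals. Python 3.11.15, numpy 2.4.6, pandas 2.3.3, scipy 1.17.1 and matplotlib 3.10.9 were used.

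Members and comparisons were chosen with earlier results of these data known. Named are the 6 strongest regions, the 4 with most peaks, the 2 closest and 2 farthest pairs among regions with exactly 2 peaks and both summits inside, and the narrowest and widest region. GRCm38 tables at hand were not used.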

Additional observations from a re-analysis of the deposited data

How the results depend on the processing

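Of 58 alternatives over 5 results, 49 stayed within 1.5 times (counts) or within the 95% interval (medians and shares). Not all were planned in advance. Leaving out regions at 2 times the control background was added later. So was leaving out regions whose replicate 1 peaks met another replicate 2 peak. Both are counted among the 58. With the roles of the replicates exchanged there were 692 split regions, a median spacing of 695 bp and 75 differing pairs; fewer regions enter. The median spacing was 614 bp with summits inside only, 657 bp with no limit on width and 669 bp with replicate 1 peaks under 100 bp apart joined. The second over the highest summit was 0.757 by deposited fold enrichment. At an unadjusted p, 351 pairs differed. Leaving out regions whose replicate 1 peaks met another replicate 2 peak, an alternative chosen after seeing the data, gave 74.0% with the replicate 2 summit nearest the highest. The cause was not tested. No paired analysis was possible because the inputs have no table here and the rule needs both ChIP lists, which also leaves no value without 1 replicate. At 11 to 24 reads a summit, small differences in height were not detectable.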

Other observations

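A few 1-Mb windows with high numbers of split regions were chosen by that number, with their values known, and not tested. Over all eligible replicate 2 peaks the share of split regions was 13.4%. Chromosome 7 from 148 to 149 Mb held 10 among 27 eligible replicate 2 peaks, or 37.0%. Chromosome 4 from 141 to 142 Mb held 9 among 21, or 42.9%, chromosome 17 from 29 to 30 Mb 9 among 29, or 31.0%, and chromosome 13 from 23 to 24 Mb 9 among 47, or 19.1%. Outside the width limits, 229 of 490 autosomal replicate 2 peaks of 2500 bp or more, or 46.7% (95% Wilson interval 42.4 to 51.2), and 111 of 17030 narrower than 600 bp, or 0.652% (0.542 to 0.784), overlapped 2 or more replicate 1 peaks.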
